A study of Mus musculus with 12 samples.

Results

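The blood transcription complex built on TAL1, LMO2 and LDB1, with its E protein partners, its corepressor and the core binding factor RUNX1-CBFB, was followed in fetal liver (FL) by RNA-seq. Its 9 genes were chosen by name from textbook knowledge of the complex, with earlier results of these data known. They are *Tal1*, *Lyl1*, *Tcf3*, *Tcf12*, *Lmo2*, *Ldb1*, *Cbfa2t3*, *Runx1* and *Cbfb*, out of 38127 genes in the counts, and 7 of them had counts. The libraries came from wild-type C57BL/6 embryonic mouse liver depleted of Ter119+ and CD45+ cells, with 3 libraries for each of 4 sorted groups and 12 in all. At E14.5 these were P2 cells (Kit+CD24+ among CD54-CD31- cells), CD31+ cells (CD54+CD31+) and CD54+CD31- cells, which the study calls CD324+ after epithelial cadherin. At E18.5 only CD54+CD31- cells were sequenced, and no group was treated or carried a targeted allele. Every group was sorted as Ter119-CD45-, so red cells and most leukocytes had been removed before RNA was taken.

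TAL1 and LYL1 are basic helix-loop-helix factors that bind the E-box in DNA only as a pair with an E protein, E2A (*Tcf3*) or HEB (*Tcf12*). LMO2 binds no DNA and bridges that pair to GATA1 or GATA2 and to LDB1, which dimerizes and brings distant enhancers to promoters. ETO2 (*Cbfa2t3*) is the corepressor of the complex, and ID proteins block it by holding E proteins away from DNA. RUNX1 binds DNA with CBFB, which has no DNA contact of its own, and is needed for blood cells to arise from endothelium. The complex is known from erythroid, megakaryocytic and endothelial cells, and not from the hepatocyte lineage.

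Total counts ranged from 40714017 to 64368883 per library, and *Cdk8*, *Zc3h7a* and *Il1rapl1* together held 10.8% to 23.1% of them. Summed over 8 erythroid markers, levels were 1767 to 1839 CPM (counts scaled to a common library size) in P2 libraries, 198 to 423 in CD31+ libraries, 283 to 520 in E14.5 CD54+CD31- libraries and 22.5 to 135 at E18.5. Endothelial markers summed to 9122 to 9692 CPM in CD31+ libraries, which also held 407 to 758 CPM of megakaryocyte and 143 to 623 CPM of granulocyte and mast cell markers. Replicate 2 of the P2 cells had 377 CPM of endothelial markers, against 57.1 and 101 CPM in the other P2 libraries. Hepatoblast markers summed to 69107 to 79391 CPM in E14.5 CD54+CD31- libraries, and at E18.5 to 5720 CPM in replicate 1 and to 35773 and 46030 CPM in the others. The E18.5 libraries stood apart, since 6 lung epithelial markers summed to 7596 to 17474 CPM there and to at most 4.65 CPM in any E14.5 library, although the label gives liver. Replicate 1 at E18.5 had the highest lung sum. In bulk libraries fewer cells of a type and less RNA per cell cannot be told apart.

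*Lyl1* and *Cbfa2t3* were at 0 counts in all 12 libraries, and the place of both genes inside other genes bears on how these zeros are read. *Lyl1* (GRCm38, chr8:84701457-84704715, plus strand) lies wholly within *Nfix*, a gene of the opposite strand with 42155 counts over the 12 libraries, although 1796 of its 1800 exon bases touch no exon of *Nfix* or another gene. *Cbfa2t3* (chr8:122625141-122699109, minus strand) lies wholly within *Gm20388*, an annotated gene of the opposite strand that spans 4.43 Mb, and *Zfpm1*, the GATA1 cofactor, which lies within the same gene on the same strand as it, was also at 0. Across the annotation, 1008 of 1027 protein-coding genes that other genes cover completely were at 0 in all 12 libraries (98.1%), against 2187 of 13886 that no other gene overlaps (15.7%). The share was 97.9% (594 of 607) for genes covered only from the opposite strand and 98.6% (898 of 911) for covered genes with over 200 exon bases outside any other exon. The limit of 3 counts that a count of 0 allows therefore does not apply to *Lyl1* and *Cbfa2t3*, and both are listed at 0 here without a statement on their expression.

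**Figure D1:**
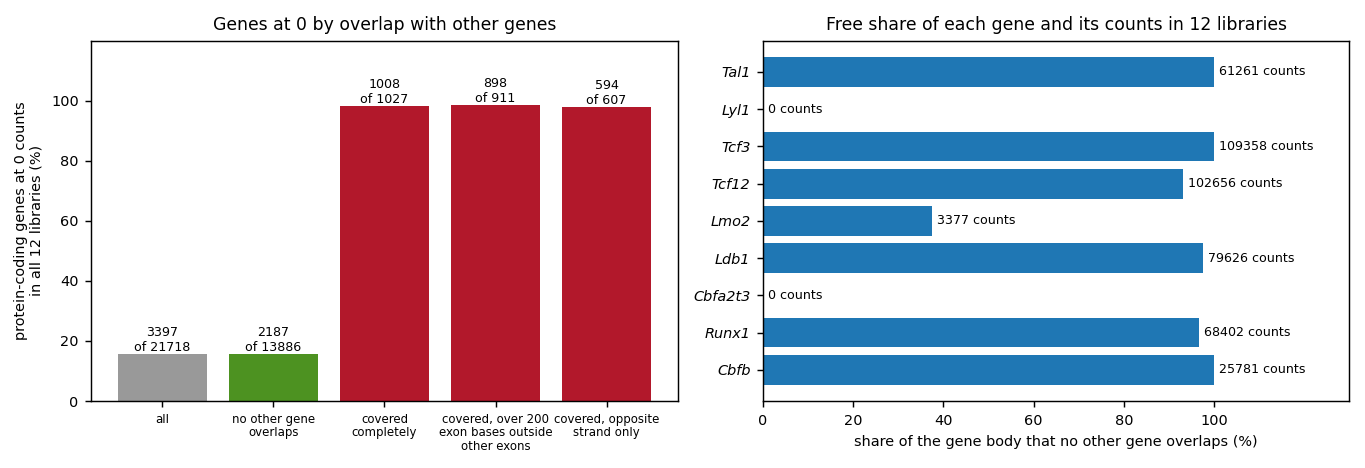
The left bars give the percentage of protein-coding genes at 0 counts in all 12 libraries, for all genes, for genes that no other gene overlaps and for 3 classes of covered genes, with the number of genes above each bar. The right bars give the percentage of each gene of the complex that no other gene overlaps, with its counts summed over 12 libraries. *Lyl1* and *Cbfa2t3* have no free part and 0 counts, and *Lmo2* has the smallest free part of the others and 3377 counts.

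*Lmo2* (chr2:103957986-103981878, plus strand) was covered in part. The opposite-strand gene *4931422A03Rik* overlaps it from its middle on, so that 8957 of its 23893 bases are free (chr2:103957986-103966942), with 98 of its 2166 exon bases among them. Whether reads from the overlap were counted for *Lmo2* was not tested, and its levels are compared between groups only. The bodies of *Tal1*, *Tcf3* and *Cbfb* were completely free, and 93.2% of *Tcf12*, 96.8% of *Runx1* and 97.6% of *Ldb1*. Levels per length depended on which length was used: in P2 cells *Tal1* had 62.9 CPM per kb of exon and *Runx1* 15.0, whereas per kb of free gene body the values were 18.0 and 0.828. No order between genes was read from the levels.

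Promoter sequence is shown for *Tal1* and *Runx1*, the factors at the centre of the complex and of core binding factor. It shows where GATA, E-box and RUNX letters lie before their start sites. The E-box search took any CANNTG, and which of these forms the complex binds was not tested. The sequences are from RefSeq (GRCm38.p6), 250 bases up to the start site, in capitals where a GATA site (AGATAA or AGATAG, and TGATAA or TGATAG), an E-box (CANNTG) or a RUNX site (TGTGGT or TGCGGT) matched on either strand. *Runx1* has a distal and a proximal start, and the counts join both.
*Tal1*, chr4:115056176-115056425, plus strand: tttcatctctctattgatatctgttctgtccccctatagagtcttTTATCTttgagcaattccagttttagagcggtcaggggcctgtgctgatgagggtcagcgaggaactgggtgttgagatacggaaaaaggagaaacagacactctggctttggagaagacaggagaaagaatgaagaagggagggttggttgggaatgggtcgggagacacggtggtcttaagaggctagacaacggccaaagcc
*Runx1* distal, chr16:92826075-92826324, minus strand: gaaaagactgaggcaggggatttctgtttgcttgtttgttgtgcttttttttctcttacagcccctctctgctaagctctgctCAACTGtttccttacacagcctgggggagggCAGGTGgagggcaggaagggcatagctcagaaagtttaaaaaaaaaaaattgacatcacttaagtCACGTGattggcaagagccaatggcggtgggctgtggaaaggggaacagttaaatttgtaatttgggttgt
*Runx1* proximal, chr16:92697330-92697579, minus strand: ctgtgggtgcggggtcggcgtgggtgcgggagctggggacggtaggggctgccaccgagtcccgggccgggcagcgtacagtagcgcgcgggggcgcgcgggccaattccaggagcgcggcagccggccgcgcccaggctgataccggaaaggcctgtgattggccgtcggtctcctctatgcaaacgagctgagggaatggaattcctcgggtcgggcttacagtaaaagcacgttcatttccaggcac

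The *Tal1* window had 1 GATA site, which began 205 bases before the start, and the distal *Runx1* window had 3 E-boxes, at 167, 136 and 71 bases before it. Searched over 300 bases, down to 50 bases after the start, *Tal1* also had 1 E-box and 1 match to CTGNNNNNNNGATA or its forms with 1 or 2 more N, the spacing at which the complex is known to bind, and distal *Runx1* had 2 RUNX sites after its start. Over 32817 promoter windows of that length, 29.8% held a GATA site, 72.3% an E-box, 22.4% a RUNX site and 7.19% the CTG and GATA spacing. The window of a second, later *Tal1* start in RefSeq, not shown, and the proximal *Runx1* window held none of these motifs. The latter had 35 CG dinucleotides, against 2 in the distal window. These are matches of letters, and binding was not measured.

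*Tal1* was highest in P2 cells. Its levels there were 282, 259 and 285 CPM in replicates 1 to 3, against 69.7, 97.0 and 84.5 CPM in CD31+ cells. CD54+CD31- cells had 30.2, 62.1 and 42.0 CPM at E14.5 and 3.03, 16.2 and 12.6 CPM at E18.5. No library of one group overlapped those of another, in the order P2, CD31+, CD54+CD31- at E14.5 and at E18.5. *Tal1* was higher in P2 cells than in E14.5 CD54+CD31- cells by a log2 fold change of 2.60 (SE 0.23, adjusted p = 2.80e-06, quasi-likelihood test of edgeR, with p adjusted by Benjamini-Hochberg over 15461 genes) and than in CD31+ cells by 1.71 (SE 0.22, adjusted p = 5.00e-05). Between CD31+ and CD54+CD31- cells the log2 fold change was 0.90 (SE 0.22, adjusted p = 0.00453), a call that was not kept when all 12 libraries were fitted together (adjusted p = 0.103). The erythroid marker sum had the same order among E14.5 CD54+CD31- libraries as *Tal1*, with replicate 1 lowest and replicate 2 highest, and its part in the *Tal1* level of those cells was not tested. Among CD31+ libraries the megakaryocyte marker sum (407, 758 and 602 CPM) had the order of *Tal1*, and its part was not tested either. *Tal2*, the short relative of *Tal1*, stayed at or below 0.480 CPM in every library.

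The E proteins differed from each other. *Tcf3*, which encodes E12 and E47, had 365, 400 and 356 CPM in P2 libraries, 168, 162 and 126 CPM in CD31+ libraries, and 151, 151 and 146 CPM in E14.5 CD54+CD31- libraries. It was higher in P2 cells by 1.31 on the log2 scale against CD54+CD31- cells (SE 0.11, adjusted p = 2.17e-06, edgeR) and by 1.29 against CD31+ cells, while CD31+ and CD54+CD31- libraries overlapped (0.02, SE 0.11, adjusted p = 0.872, edgeR). *Tcf12*, which encodes HEB, was highest in CD31+ cells, at 224, 199 and 215 CPM. P2 libraries had 149, 150 and 148 CPM of it, above the 104, 107 and 118 CPM of E14.5 CD54+CD31- libraries (log2 fold change 0.42, SE 0.08, adjusted p = 0.000914, edgeR). That call for *Tcf12* was lost with the normalization factors deposited by the authors (0.16).

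The ratio of *Tcf12* to *Tcf3* counts within a library does not depend on scaling between libraries. It was 0.409, 0.375 and 0.415 in P2 cells, 1.33, 1.23 and 1.71 in CD31+ cells, 0.693, 0.709 and 0.813 in CD54+CD31- cells at E14.5, and 2.31, 2.38 and 2.52 at E18.5. None of the groups overlapped, with P2 cells lowest and E18.5 cells highest. An exact two-sided permutation test of 3 libraries against 3 cannot go below p = 0.1, the value obtained between P2 and either other E14.5 group (adjusted p = 0.123 over 16 such tests of 4 ratios). *Tcf4*, the other E protein gene, was at 385, 308 and 339 CPM in CD31+ libraries and at 30.7 to 54.3 CPM in the other E14.5 libraries (CD31+ against CD54+CD31- cells 3.36, SE 0.12, adjusted p = 4.24e-09, edgeR).

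**Figure D2:**
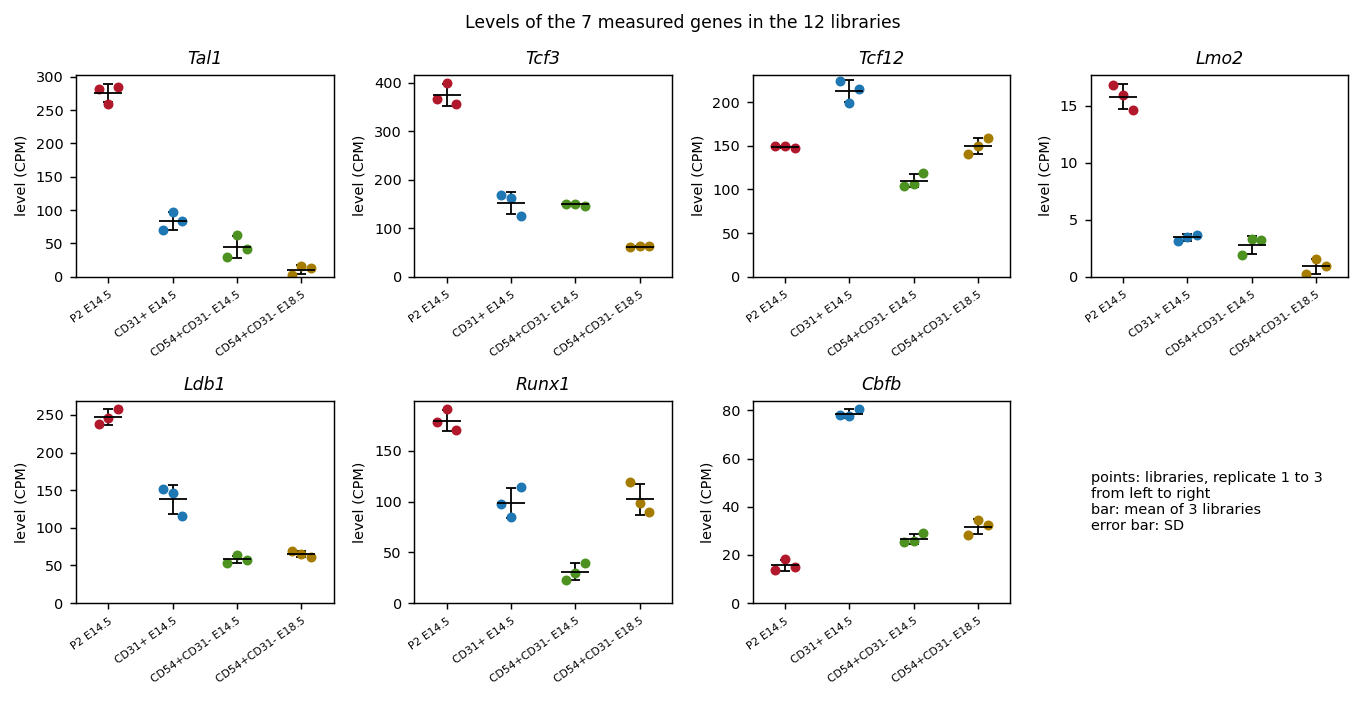
Levels in CPM (linear axes from 0) of the 7 measured genes in each library, with the mean and SD of 3 libraries per group. *Tal1*, *Tcf3*, *Lmo2*, *Ldb1* and *Runx1* are highest in P2 cells, and *Tcf12* and *Cbfb* in CD31+ cells.

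Both bridge proteins were highest in P2 cells. *Lmo2* had 16.9, 15.9 and 14.7 CPM in P2 libraries, which rest on 734, 766 and 761 counts. Its levels were 3.16, 3.49 and 3.71 CPM in CD31+ libraries, 1.90, 3.34 and 3.23 CPM in CD54+CD31- libraries at E14.5, and 0.232, 1.55 and 0.983 CPM at E18.5, where the lowest value is 15 counts. P2 cells stood above every other library, by 2.47 against CD54+CD31- cells (SE 0.21, adjusted p = 1.86e-06, edgeR) and by 2.18 against CD31+ cells (SE 0.20, adjusted p = 3.72e-06), and the latter groups overlapped (0.29, adjusted p = 0.240). *Tal1* and *Lmo2* are among the genes that the study listed from these libraries as higher in P2 than in CD324+ cells, so their direction there is not independent evidence.

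*Ldb1* was at 238, 246 and 258 CPM in P2 libraries, 152, 146 and 116 CPM in CD31+ libraries and 53.4, 63.6 and 56.8 CPM in E14.5 CD54+CD31- libraries. The 3 groups did not overlap, and each step passed the test (P2 against CD31+ 0.83, SE 0.11, adjusted p = 6.42e-05, and CD31+ against CD54+CD31- 1.24, SE 0.11, adjusted p = 4.46e-06, edgeR). Its close relative *Ldb2* had the other order, with 406, 304 and 286 CPM in CD31+ libraries and at most 10.6 CPM in the other E14.5 libraries. The ratio of *Ldb2* to *Ldb1* counts was 2.08 to 2.68 in CD31+ libraries, 0.0123 to 0.0432 in P2 libraries and 0.0302 to 0.0535 in E14.5 CD54+CD31- libraries. The highest P2 ratio was that of replicate 2, the P2 library with the most endothelial marker RNA.

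**Figure D3:**
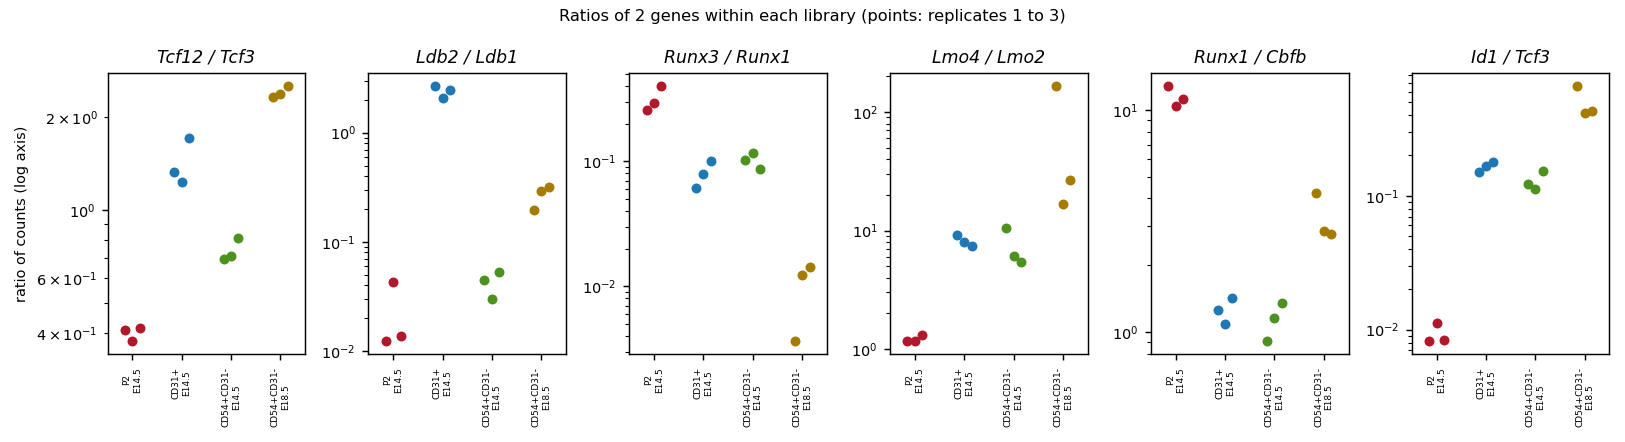
Ratios of the counts of 2 genes within each library (log axes), with 3 libraries per group as points. CD31+ libraries have *Ldb2* over *Ldb1* ratios of at least 2.08, and P2 libraries have the lowest *Tcf12* over *Tcf3* and *Id1* over *Tcf3* ratios and the highest *Runx1* over *Cbfb* ratios.

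The subunits of core binding factor differed in opposite directions between P2 and CD54+CD31- cells. *Runx1* had 179, 191 and 170 CPM in P2 libraries, 97.9, 84.6 and 114 CPM in CD31+ libraries and 23.0, 29.7 and 39.5 CPM in E14.5 CD54+CD31- libraries. Without overlap, it was higher in P2 cells than in CD54+CD31- cells by 2.53 on the log2 scale (SE 0.19, adjusted p = 6.87e-07, edgeR) and higher in CD31+ than in CD54+CD31- cells by 1.68 (SE 0.18, adjusted p = 1.56e-05). *Cbfb* was lowest in P2 libraries, at 13.9, 18.3 and 15.1 CPM. CD31+ libraries had 78.0, 77.5 and 80.6 CPM of it and E14.5 CD54+CD31- libraries 25.3, 25.8 and 29.1 CPM. It was lower in P2 cells, by -0.78 against CD54+CD31- cells (SE 0.11, adjusted p = 0.000102, edgeR) and by -2.33 against CD31+ cells (SE 0.11, adjusted p = 7.20e-08). The ratio of *Runx1* to *Cbfb* counts, added after the values were seen, was 10.4 to 12.8 in P2 libraries, 1.09 to 1.42 in CD31+ libraries and 0.908 to 1.36 in E14.5 CD54+CD31- libraries.

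Of the 7 measured genes, 6 were higher and 1 lower in P2 than in E14.5 CD54+CD31- cells, where 70.0% of all 15461 tested genes were called (33.8% higher, 36.1% lower). Their median log2 fold change was 2.07, beside -0.01 for all tested genes. Against CD31+ cells, 5 were higher (*Tal1*, *Tcf3*, *Lmo2*, *Ldb1*, *Runx1*) and 2 lower (*Tcf12*, *Cbfb*), with 73.7% of all tested genes called (34.3% higher, 39.4% lower) and medians of 0.85 and -0.13. CD31+ cells had 5 of the 7 higher than CD54+CD31- cells and *Tcf3* and *Lmo2* not called, where 65.6% of genes were called (31.7% higher, 34.0% lower), with medians of 0.95 and -0.03. With so many genes called in every comparison, the counts of members called say little about the members, and the sizes of the changes carry the description. These comparisons share libraries, so their values are given side by side. Without replicate 2 of the P2 cells, all 7 genes kept their call and direction against both other groups.

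**Figure D4:**
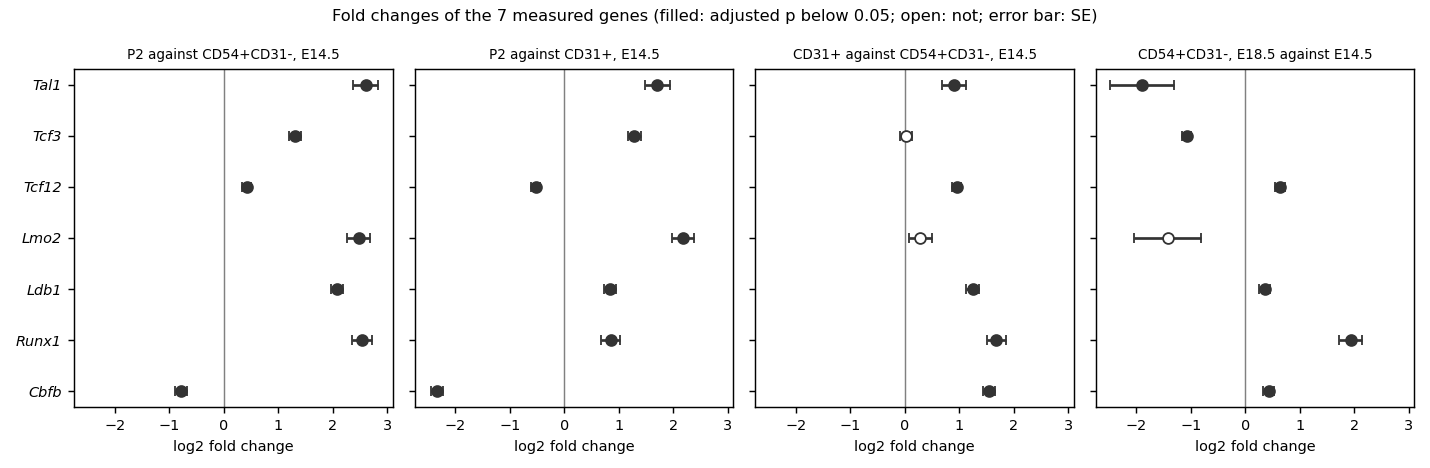
Log2 fold changes with their SE for the 7 measured genes in 4 comparisons (edgeR), filled where the adjusted p was below 0.05. *Cbfb* lies left of 0 in both comparisons of P2 cells, and between the ages *Runx1* lies right and *Tal1* and *Tcf3* left of 0.

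Between E14.5 and E18.5 libraries of CD54+CD31- cells the members of the complex differed in both directions. The E18.5 libraries held 7596 to 17474 CPM of lung epithelial markers and any E14.5 library at most 4.65 CPM. Age and cell content therefore cannot be told apart here. *Runx1* was higher at E18.5, with 119, 98.9 and 89.6 CPM against the 23.0 to 39.5 CPM above, without overlap (log2 fold change 1.93, SE 0.21, adjusted p = 0.000257, edgeR over 15863 genes). In the order of the groups this level was next to that of CD31+ cells, and the groups overlapped (adjusted p = 0.815 in the fit of 12 libraries). *Tcf12* was higher at E18.5 too, at 141, 149 and 159 CPM (0.63, SE 0.09, adjusted p = 0.000797), a level not separated from that of P2 cells (adjusted p = 0.930, edgeR). *Tcf3* was lower, at 60.8, 62.9 and 63.2 CPM (-1.07, SE 0.08, adjusted p = 5.64e-05), below every E14.5 library. *Tal1* was lower as well (-1.90, SE 0.58, adjusted p = 0.0235, edgeR), but without E14.5 replicate 2 or 3 it did not pass the test (-1.61 and -1.96).

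*Ldb1* (69.1, 64.9 and 60.9 CPM at E18.5, log2 fold change 0.35, adjusted p = 0.0176, edgeR) and *Cbfb* (28.3, 34.6 and 32.3 CPM, 0.43, adjusted p = 0.00771) passed the test although their libraries overlapped those of E14.5, and neither did in the fit of 12 libraries (0.17 and 0.25). *Ldb1* also lost its call without E14.5 replicate 1 (0.28) or replicate 3 (0.30). *Lmo2*, with a log2 fold change of -1.42 (SE 0.61, adjusted p = 0.0766, edgeR), was not called, though its libraries did not overlap. Thus 4 of 7 were higher and 2 lower, where 69.4% of all tested genes were called (35.9% higher, 33.5% lower), and the median of the 7 was 0.35 beside 0.03 for all genes. Without E18.5 replicate 1, the library with the most lung and the least hepatoblast and erythroid marker RNA, *Runx1* differed by 1.79, *Tal1* by -1.46 and *Tcf3* by -1.07, all called, and *Lmo2* was then called too (-0.98). The E18.5 libraries kept in that fit still held 7596 and 7909 CPM of lung epithelial markers. Endothelial markers, which summed to 38.7 to 67.5 CPM at E14.5 and to 174 to 223 CPM at E18.5, were higher in 8 of 8 genes (median log2 fold change 2.11, edgeR). Of 7 measured mesenchymal markers 6 were higher and 1 lower at E18.5 (median 3.69, edgeR). Their sum was 1113 to 1197 CPM at E14.5 and 3450 to 3583 CPM at E18.5, but *Reln* held most of it at E14.5 (mean 1025 CPM) and was lower at E18.5 (198 CPM), whereas *Col1a1*, a fibrillar collagen, had means of 47.9 and 1648 CPM. Erythroid markers were lower in 5 of 8 genes and higher in 0 (median -2.06, edgeR). Their sum was 22.5, 135 and 103 CPM in E18.5 replicates 1 to 3, the order that *Tal1* and *Lmo2* had there. Lung epithelial markers were higher in 6 of 6 genes (median 11.84, edgeR). The part of all these cells in the differences of *Runx1*, the other members and the ID genes was not tested.

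The paralogs of the members, a list of 10, had their highest E14.5 levels mostly in CD31+ cells. Of the 8 tested, 7 were higher in CD31+ than in CD54+CD31- cells (median 2.00), where 31.7% of all tested genes were higher. In P2 against CD31+ cells 6 were lower and 1 higher (median -2.78), beside 39.4% and 34.3% of all tested genes. Among those highest in CD31+ cells, beside *Ldb2* and *Tcf4*, were *Runx1t1*, the ETO relative of *Cbfa2t3*, at 29.4, 31.1 and 37.1 CPM in CD31+ libraries and 4.02 to 8.29 CPM in the other E14.5 libraries, and *Runx2*, the bone RUNX factor, at 3.72 to 8.68 CPM against 0.187 to 1.70. *Runx3*, also higher in CD31+ than in CD54+CD31- cells, was highest in P2 cells. It had 46.3, 56.1 and 68.2 CPM in P2 libraries, 5.95 to 11.5 CPM in CD31+ libraries and 2.35 to 3.46 CPM in E14.5 CD54+CD31- libraries (P2 against CD54+CD31- cells 4.18, SE 0.29, adjusted p = 4.15e-07, edgeR). The study's list holds *Runx3* too. Relative to *Runx1*, *Runx3* counts were 0.259 to 0.400 in P2 libraries and at most 0.116 in every other library. *Lmo1* was at or below 0.575 CPM at E14.5 and *Lmo3* at or below 0.311 CPM in every library, while *Lmo4* had 17.5 to 29.0 CPM at E14.5, so that *Lmo4* over *Lmo2* counts were 1.16 to 1.31 in P2 libraries and 5.42 to 10.6 in the other E14.5 libraries.

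The single-stranded DNA binding proteins that stabilise LDB1 had the same order of groups at E14.5 as *Ldb1*. *Ssbp2* had 113, 102 and 98.5 CPM in P2 libraries, 38.2, 33.4 and 45.3 CPM in CD31+ libraries and 16.2, 22.0 and 26.2 CPM in E14.5 CD54+CD31- libraries. All 3 SSBP genes were higher in P2 than in CD54+CD31- cells (*Ssbp2* 2.26, *Ssbp4* 1.48, *Ssbp3* 1.10, edgeR), and all 3 were higher in P2 than in CD31+ cells, where the medians were 0.59 for the SSBP genes and -0.13 for all genes. Of all tested genes, 33.8% and 34.3% were higher in these comparisons, in that order.

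ID genes, the inhibitors of E proteins, were low in P2 cells. *Id2* had 3.58, 4.43 and 4.04 CPM in P2 libraries, 45.4, 84.8 and 90.2 CPM in CD31+ libraries and 123, 148 and 154 CPM in E14.5 CD54+CD31- libraries, without overlap (P2 against CD54+CD31- cells -5.16, SE 0.26, adjusted p = 4.61e-08, edgeR). *Id1* had 2.99, 4.52 and 3.00 CPM in P2 libraries and 17.0 to 27.1 CPM in the other E14.5 libraries. Against CD31+ cells all 4 ID genes were lower in P2 cells (median -4.58), and against CD54+CD31- cells 3 were lower, *Id4* not being called at 0.0963 to 0.916 CPM in both. Of all tested genes, 39.4% and 36.1% were lower in these comparisons, in that order. *Id3* (71.1, 79.8 and 55.4 CPM) and *Id4* (15.6, 15.7 and 12.3 CPM) were highest in CD31+ cells. In P2 replicate 2, which had the most endothelial marker RNA, *Id3* was 4.64 CPM against 0.965 and 1.08 CPM in the other P2 libraries. *Id1* over *Tcf3* counts, added after the values were seen, were 0.00818 to 0.0113 in P2 libraries and 0.113 to 0.178 in the other E14.5 libraries. At E18.5, *Id1*, *Id3* and *Id4* were higher than at E14.5 in CD54+CD31- cells.

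**Figure D5:**
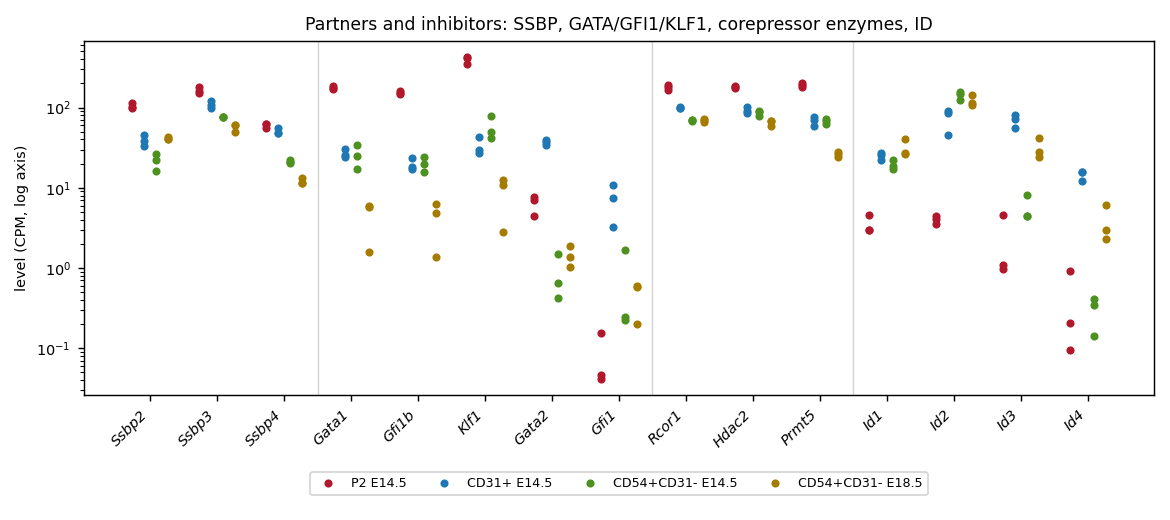
Levels in CPM (log axis) of 15 partner and inhibitor genes, each point 1 library, coloured by group. The SSBP genes, *Gata1*, *Gfi1b*, *Klf1*, *Rcor1*, *Hdac2* and *Prmt5* are highest in P2 cells, *Gata2* and *Gfi1* in CD31+ cells, and *Id1* and *Id2* are lowest in P2 cells.

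The DNA-binding partners were split between P2 and CD31+ cells. *Gata1*, the erythroid GATA factor, had 173, 184 and 170 CPM in P2 libraries and 17.3 to 34.6 CPM in the other E14.5 libraries (P2 against CD54+CD31- cells 2.77, SE 0.21, adjusted p = 9.50e-07, edgeR). *Klf1* and *Gfi1b*, erythroid factors, were higher there too, by 2.80 and 2.91. *Gata2*, the GATA factor of stem cells and endothelium, was instead at 33.8, 37.1 and 39.1 CPM in CD31+ libraries, 4.43 to 7.74 CPM in P2 libraries and 0.420 to 1.51 CPM in E14.5 CD54+CD31- libraries. *Gfi1* was at 3.22 to 10.7 CPM in CD31+ libraries and at most 0.154 CPM in P2 libraries. In all, 4 of the 5 measured partners were higher and 1 (*Gfi1*) lower in P2 than in CD54+CD31- cells. Of all tested genes, 33.8% were higher and 36.1% lower there. *Gfi1* had 0.226, 1.67 and 0.247 CPM in E14.5 CD54+CD31- libraries. Replicate 2 of these also had the highest granulocyte and mast cell marker sum of its group, 122 CPM against 6.73 CPM in replicate 1. Among CD31+ libraries that sum (143, 292 and 623 CPM) had the order of *Gfi1*. The part of such cells in the *Gfi1* levels was not tested.

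Ratios to *Gata1*, added after the values were seen, are given without a test. *Tal1* over *Gata1* counts were 1.41 to 1.67 in P2 libraries and 1.71 to 1.79 in E14.5 CD54+CD31- libraries, 2.87 to 3.33 in CD31+ libraries and 1.90 to 2.75 at E18.5. *Runx1* over *Gata1* counts were 1.00 to 1.04 in P2 libraries, 0.859 to 1.61 in E14.5 CD54+CD31- libraries, 2.81 to 4.51 in CD31+ libraries and 15.7 to 74.9 at E18.5.

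The corepressor proteins that work with ETO2 and GFI1B differed less. Of 8, 6 were higher in P2 than in CD54+CD31- cells (median 0.36) and 7 higher and 1 lower than in CD31+ cells (median 0.59). Of all tested genes, 33.8% were higher in the former comparison, and 34.3% higher and 39.4% lower in the latter. *Prmt5*, an arginine methyltransferase, had 189, 179 and 200 CPM in P2 libraries and 58.4 to 76.0 CPM in the other E14.5 libraries (1.48 against CD54+CD31- cells, adjusted p = 7.60e-07, edgeR). *Rcor1* (CoREST) was higher by 1.35 and *Hdac2* by 1.06, whereas *Kdm1a* (LSD1), the demethylase bound to CoREST, differed by 0.32 (adjusted p = 0.00295, edgeR). With the authors' factors the median of all genes in P2 against CD54+CD31- cells was -0.27, in place of -0.01. Values of these 8 genes under those factors are not given, so small differences such as that of *Kdm1a* depend on the normalization.

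Known target genes differed between the lineages. In P2 against CD54+CD31- cells, 33.8% of all tested genes were higher and 36.1% lower. Of 10 measured erythroid targets, 9 were higher and 1 lower there (median 2.54). The study's list includes *Gata1*, *Gfi1b*, *Klf1*, *Kit*, *Epor* and *Ank1* among them, so for these the direction is not independent evidence. *Kit* had 299, 310 and 359 CPM in P2 libraries, which were sorted on its protein, and its level is no finding. *Ank1*, a red cell membrane skeleton gene, had 827, 756 and 783 CPM in P2 libraries and 103 to 186 CPM in the other E14.5 libraries (2.31, SE 0.13, adjusted p = 1.18e-07, edgeR). *Epor*, the erythropoietin receptor, was higher by 2.78, *Kel* by 1.62 and *Epb42* by 1.09. The gene that was lower in P2 cells was *Slc4a1*, the red cell anion exchanger of late erythroblasts, with 136, 143 and 82.3 CPM against 170, 291 and 211 CPM (-0.91, SE 0.25, adjusted p = 0.00767, edgeR).

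All 6 measured endothelial targets were higher in CD31+ than in CD54+CD31- cells (median 7.49) and lower in P2 than in CD31+ cells (median -5.69). Of all tested genes, 31.7% were higher and 39.4% lower in these comparisons, in that order. Of the 6, 4 were higher in P2 than in CD54+CD31- cells (median 1.99) and *Fli1* and *Cdh5* were not called, and 6 of 8 endothelial markers, a list that shares *Cdh5*, *Kdr* and *Tek* with these targets, were higher there as well (median 2.17, edgeR). *Kdr*, a VEGF receptor, was at 1940.3 to 2169.9 CPM in CD31+ libraries and at 12.2, 75.9 and 20.9 CPM in P2 libraries, where replicate 2 was again highest. CD31+ cells were sorted on an endothelial surface protein, and the log2 fold changes were 8.21 for *Kdr*, 7.89 for *Tek*, 7.53 for *Esam*, 7.46 for *Erg*, 6.46 for *Cdh5* and 4.84 for *Fli1*. In P2 against CD54+CD31- cells, 33.8% of all tested genes were higher and 36.1% lower. Among 8 genes that RUNX1 regulates in myeloid cells and megakaryocytes, 1 was higher and 3 lower there (median -0.03). *Nfe2*, a megakaryocyte and erythroid factor, was the higher one (50.9, 48.7 and 41.6 against 18.8, 25.4 and 21.9 CPM, 1.08, adjusted p = 2.23e-05, edgeR), and *Cebpa* (-6.59, also a hepatocyte factor), *Csf1r* (-5.18) and *Spi1* (-2.44) were lower. Macrophage markers, a list that also holds *Csf1r*, were lower in 7 of 8 genes in the same comparison (median -4.43, edgeR) and summed to 15.1 to 65.0 CPM in P2 libraries and to 155 to 269 CPM in E14.5 CD54+CD31- libraries. Their part in the levels of these genes was not tested. The megakaryocyte genes *Itga2b*, *Pf4* and *Gp1bb* were higher in CD31+ than in CD54+CD31- cells by 3.72, 3.03 and 2.99, and the megakaryocyte marker sum of those libraries is given above.

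For each measured member, 13196 genes were searched for the pattern nearest to it over the 12 libraries, by the root mean square difference of centred log2(CPM + 1). The 3 nearest to *Tal1* were *Gm11427* (0.30), *Slc14a1* (0.34), a urea channel of red cells, and *Gata1* (0.40). *Lmo2* was nearest to *Arhgap9* (0.12), *Trim58* (0.18), a ubiquitin ligase of late erythroblasts, and *Pcyt1b* (0.20), and *Ldb1* to *Fbxo10*, *Pacs1* and *Arl4a*. *Tcf3* was nearest to *Supt16* (0.08), a subunit of the histone chaperone FACT, to *Sf3a2*, a splicing factor, and to *Dnttip2*. *Tcf12* was nearest to *Mark3*, *Helz* and *Tbc1d5*, *Runx1* to *Pla2g4a*, *Fam117b* and *Kcnq5*, and *Cbfb* to *Eml4*, *Spag9* and *Ralgapa2*. With 4 groups behind the 12 libraries, such likeness describes the order of the groups. The study's list of genes higher in P2 than in CD324+ cells holds *Tal1*, *Lmo2* and all the genes nearest to each of them. That list came from these libraries, so this likeness is not independent evidence.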

How the data were processed

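Bulk RNA was sequenced from 12 libraries. Per the labels and the study's methods, the authors depleted ribosomal sequences, prepared libraries with a stranded total RNA kit, trimmed reads with cutadapt 1.11, aligned single-end reads to GRCm38 (mm10) with STAR 2.5.0a and counted them per gene with featureCounts 1.4.6-p3. The strand and feature settings of the counting are not given in the sources used here. The authors deposited raw counts, which were used for every test, and a score that is the count times 1 factor per library, rounded, which was used only for the authors' factors.

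Levels are CPM (counts scaled to a common total) on TMM-adjusted sizes over the 12 libraries, as mean ± SD or per library. Tests used edgeR 4.0.16 in R 4.3.3 (TMM, filterByExpr, quasi-likelihood test, Benjamini-Hochberg adjusted p below 0.05), with group as the only factor, on the 9 E14.5 libraries, the 6 CD54+CD31- libraries or, for the order of groups, all 12. Standard errors were derived from the fold change and F. The tests were checked on simulated data in which few genes changed, as many up as down, with the same spread for every gene. In the real comparisons most genes were called, so that check does not cover the normalization used here. The study states independent litters for the E14.5 groups and says nothing on the litters of the E18.5 libraries. The counts of replicates were further apart than counting error gives (chi-square of at least 42.0 per degree of freedom), which does not show separate litters. Each library was counted as 1 sample, which at E18.5 rests on the labels and these counts alone. At these depths the number of libraries, 3 per group, limits precision more than counting error.

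Same-numbered CD31+ and CD54+CD31- libraries at E14.5 deviated together (correlations over genes 0.33, 0.26 and 0.12), but no source ties a number to a litter. The printed values are from the fit without a replicate block, so they leave out any pairing. A block for the replicate number, put on all E14.5 libraries with those of P2 cells, changed no call of a member between CD31+ and CD54+CD31- cells. Gene positions came from GENCODE M21 (37932 of 38127 identifiers found), promoters from RefSeq (8 of the 9 members, *Lmo2* not among them).

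The members and lists were chosen with earlier results of these data known. Named were all members, genes of a list that passed the test beyond 2-fold in P2 or CD31+ against CD54+CD31- cells at E14.5, and the 3 genes nearest to each member. *Slc4a1*, *Kdm1a*, *Lmo3*, *Lmo4* and *Tal2*, the overlap check, and the ratios to *Gata1*, to *Cbfb* and of *Id1* were chosen after the values were seen. *Ahsp* was not found among the gene names. A gene that the rule names is not reported here. Alternatives were DESeq2's size factors, the authors' factors, DESeq2 1.42.0, other low count filters, the replicate block, genes above 1% of a library left out, glmTreat beyond 2-fold, other sets of libraries, and each library left out in turn.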

Additional observations from a re-analysis of the deposited data

How the results depend on the processing

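Each member's fold change was recomputed under every alternative. It kept its direction and its side of the threshold in 130 of the recomputed values of P2 against CD54+CD31- cells, in 130 of P2 against CD31+ cells, in 124 of CD31+ against CD54+CD31- cells and in 89 of E18.5 against E14.5, and passed or missed the threshold otherwise in 3, 3, 3 and 16 of them. The remaining 6 are *Tcf3* between CD31+ and CD54+CD31- cells, whose log2 fold change of 0.02 was never called: it was -0.023 with no low count filter and -0.10 to 0.065 with 1 library left out. When only changes beyond 2-fold were tested (glmTreat), the members called were 4 in P2 against CD31+ cells, 3 in CD31+ against CD54+CD31- cells and 1 between the ages, and all genes called were 5056 (P2 against CD54+CD31-), 5653 (P2 against CD31+), 4590 (CD31+ against CD54+CD31-) and 5315 (E18.5 against E14.5), since this test asks for more. With each library left out in turn, members called stayed at 7, 7 and 5 in the E14.5 comparisons and were 4 to 7 between the ages. The authors' factors moved the median log2 fold change of all genes to -0.27 (P2 against CD54+CD31-), -0.50 (P2 against CD31+), 0.08 (CD31+ against CD54+CD31-) and 0.27 (between the ages), with 38.2%, 33.9%, 53.4% and 60.9% of the calls higher in place of 48.3%, 46.6%, 48.3% and 51.7%, and reversed no member. Fitting all 12 libraries moved the median between the ages to -0.14. *Lmo2* between the ages was called by DESeq2 (-1.41), in the fit of 12 libraries (-1.60) and with the replicate block (-1.68), and without E18.5 replicate 1 (-0.98) or 2 (-2.02).

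Same-numbered P2 and CD54+CD31- libraries correlated at 0.07, -0.02 and 0.08 in their deviations over genes, P2 and CD31+ libraries at 0.02, 0.08 and 0.34, and the ages at 0.07, 0.02 and 0.05. The printed values take no numbers as pairs. With the replicate block, 10910, 11460, 10326 and 10329 genes were called in the 4 comparisons, and among the members it changed no call but that of *Lmo2*. Levels per kb of free gene body, an alternative added after the data were seen, were lower than per kb of exon for every measured member, as that length is longer. Depth limits *Lmo2* most, with 15 to 120 counts at E18.5.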
